A study of Mus musculus with 6 samples.

Results

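The genes described here make cholesterol or control its synthesis and uptake: Hmgcs1, Pmvk, Idi1, Fdps, Sqle, Lss, Insig1 and Srebf2. They were chosen by pathway, with earlier results of these data known. They were read on 4 two-colour expression arrays of mouse colonic mucosa, with every probe matched through its transcript accession. Of these 8 genes, 7 were matched, by 12 probes, among 14702 genes tested in all. No probe was matched to Idi1, the isopentenyl diphosphate isomerase, so it was not analysed here. The knockout samples came from C57BL/6 mice that lack Tlr2 (Tlr2-/-), which encodes a receptor that recognises lipoproteins of bacteria, and the wild-type samples from C57BL/6 mice, all at 90 postnatal days. The mucosa was scraped from the colon. Each array held 1 knockout and 1 wild-type sample, and is named here by the number of its knockout sample as pair 1, 2, 4 or 5. The knockout sample carried the dye Cy3 on the arrays of pairs 1 and 2 and Cy5 on those of pairs 4 and 5. The labels do not say that the samples were separate animals, so p-values measure the spread between these samples.

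Cells build cholesterol from acetyl-CoA through the mevalonate pathway, in which Hmgcs1, Pmvk and Fdps act before squalene is made, and Sqle and Lss turn squalene into the first sterol. The transcription factor encoded by Srebf2 is held in the endoplasmic reticulum by the Insig1 protein when sterols are plentiful, and is released to switch on synthesis and uptake genes, Insig1 included, when they run low. The intestine is a site of cholesterol synthesis as well as absorption.

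Promoter windows of Hmgcs1, Lss and Insig1 are shown as examples. These members were at positive ratios together on 3 arrays, but so were all 7 measured members. The Hmgcs1 window holds a match to the sterol regulatory element and the others do not. Each window runs from 250 bases before to 50 bases after the transcript start in RefSeq on GRCm38.p6, on the plus strand, at chr13:119690101-119690400 for Hmgcs1, chr10:76531355-76531654 for Lss and chr5:28071162-28071461 for Insig1. Capitals mark matches on either strand to the sterol regulatory element TCACNCCAC, the CCAAT box (CCAAT) or the GC box (GGGCGG), and no matches of different motifs overlap.
Hmgcs1: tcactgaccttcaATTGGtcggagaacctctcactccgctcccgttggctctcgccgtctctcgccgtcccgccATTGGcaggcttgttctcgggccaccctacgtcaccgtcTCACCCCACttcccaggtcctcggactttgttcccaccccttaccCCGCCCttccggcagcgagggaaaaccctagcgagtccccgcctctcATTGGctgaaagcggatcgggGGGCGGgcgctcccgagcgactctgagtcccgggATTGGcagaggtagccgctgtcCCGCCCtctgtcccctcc
Lss: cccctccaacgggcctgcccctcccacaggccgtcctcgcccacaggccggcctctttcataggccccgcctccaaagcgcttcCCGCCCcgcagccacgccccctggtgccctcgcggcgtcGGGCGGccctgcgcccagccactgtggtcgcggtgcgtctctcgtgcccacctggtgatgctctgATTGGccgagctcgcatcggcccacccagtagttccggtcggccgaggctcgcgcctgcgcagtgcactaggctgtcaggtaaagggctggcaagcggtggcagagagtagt
Insig1: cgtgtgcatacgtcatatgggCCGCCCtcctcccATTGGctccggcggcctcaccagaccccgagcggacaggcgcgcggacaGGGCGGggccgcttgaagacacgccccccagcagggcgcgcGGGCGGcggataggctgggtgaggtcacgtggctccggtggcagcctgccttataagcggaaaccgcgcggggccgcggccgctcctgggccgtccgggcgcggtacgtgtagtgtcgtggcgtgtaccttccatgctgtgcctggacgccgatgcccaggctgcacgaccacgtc

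The Hmgcs1 window held 1 sterol regulatory element, 4 CCAAT boxes and 3 GC boxes. The Lss window held 1 CCAAT box and 2 GC boxes, and the Insig1 window 1 CCAAT box and 3 GC boxes, with 0 matches to the sterol regulatory element in either. Of 32851 RefSeq mouse promoter windows of this length, 1.24% held the sterol regulatory element, 37.4% a CCAAT box and 35.7% a GC box. Windows were found for 6 of the 8 genes. Srebf2 held 1 CCAAT box and 5 GC boxes, Idi1 held 2 CCAAT boxes and 1 GC box, and of the 2 windows of Pmvk, 1 held a CCAAT box and the other none of the motifs. A match is a run of letters and not a measured binding site.

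Each array held 43379 spots that were not controls, of which between 67.7% and 71.9% were well above background in the knockout channel and between 63.3% and 76.5% in the wild-type channel. All 12 probes of the members were well above background in both genotypes on every array and saturated on none. Tlr2 itself was at a log2 ratio (knockout over wild type) between -5.50 and -4.20 on the 4 arrays, in the direction of the genotype labels on each. Pair 1 stood apart from the other pairs. Across 14691 genes, which are not independent replicates, its log2 ratios correlated at a Pearson r between -0.42 and -0.10 with those of the other pairs, which correlated with each other at 0.42 to 0.57. Results are therefore also given without pair 1. Markers of absorptive colonocytes were well above background in all samples for 8 of 8 genes, 4 of them saturated on every array.

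The members were at positive ratios of knockout over wild type in pairs 2, 4 and 5 and mostly at negative ratios in pair 1. All 12 probes were positive in pair 2, from 0.40 to 1.49 (log2), in pair 4, from 0.09 to 1.88, and in pair 5, from 0.15 to 0.85. In pair 1, 3 probes were positive and 9 negative, with a median of -0.68 and a range from -1.41 to 0.55. By gene, 7 of 7 were positive in pairs 2, 4 and 5, as were 23.3% of all genes tested, and 5 of 7 were in addition negative in pair 1, as were 16.2% of all genes. The members were chosen with earlier results of these data known, so such counts describe them and are no test of the set. Pmvk and Lss alone were positive on all 4 arrays, against 7.18% of all genes tested, and 0 of 7 were negative on all 4, against 8.42%. With median centring in place of loess, 0 of 7 were positive on all 4 arrays, a setting for which no share of all genes is given. The median over the 7 genes of the mean log2 ratio was 0.57, against -0.0084 over all genes tested. It was 0.26 without pair 4, and 0.0076 on the arrays of pairs 1 and 2 alone. No member passed the test of limma with a dye term after Benjamini-Hochberg adjustment over all genes, and neither did any other gene (0%), while 8.12% of genes, and Hmgcs1, Pmvk and Lss among the members, had an unadjusted limma p under 0.05. The smallest limma adjusted p over all genes was 0.0577, so Tlr2, the gene that the knockout lacks, did not pass either. A member that did not pass is thus not shown to be unchanged.

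**Figure D1:**
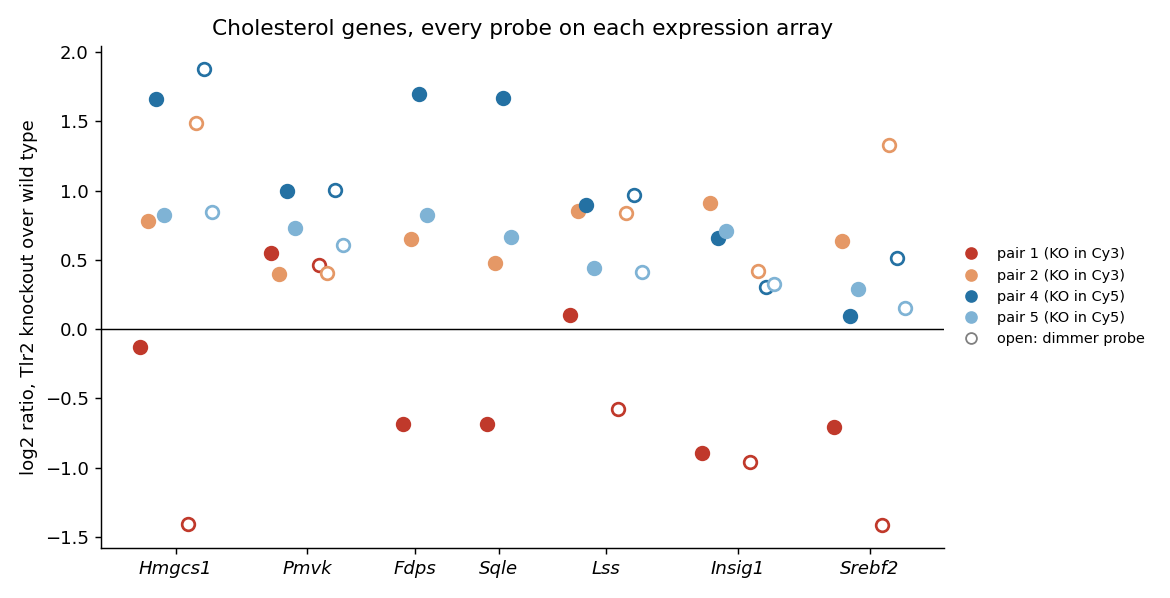
Log2 ratio of Tlr2 knockout over wild type (vertical axis) for each probe of the 7 measured genes on each of the 4 arrays, 1 point per probe and array. Filled points are the probe that stands for the gene and open points its dimmer second probe; the points of pair 1 lie below 0 for 9 of 12 probes, and those of the other pairs above 0 for all 12.

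Among the measured members, Pmvk had the narrowest spread of log2 ratios on the probes used. It encodes phosphomevalonate kinase, which adds the second phosphate to mevalonate. Its normalised level was 12.83, 12.80, 13.11 and 12.85 (log2 intensity) in the knockout samples of pairs 1, 2, 4 and 5, against 12.28, 12.40, 12.11 and 12.12 in the wild-type samples. The 4 knockout samples all lay above the 4 wild-type samples, which was so for 2.22% of all genes measured on every array, while 4.64% had no overlap in either direction. Pmvk and Lss were the 2 of 7 members without overlap. The mean log2 ratio was 0.67 ± 0.26 (SD, n = 4), 1.59-fold, with a limma adjusted p of 0.593. The second probe of Pmvk was at 0.62 ± 0.27 and its levels did not overlap either. In the authors' deposited table of increased transcripts, Pmvk is listed with ratios of 1.19, 1.44, 2.30 and 1.72 and an average of 1.66, in the order of that table's array numbers, which match no sample title. No other member is listed in it or in the table of decreased transcripts. Pmvk and Fdps lie within 10 Mb of Tlr2 on chromosome 3 by the gene order of GRCm38.p6, so for these genes flanking sequence inherited with the targeted allele and the missing receptor cannot be told apart.

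Hmgcs1 had the largest mean of the members. It encodes the cytosolic HMG-CoA synthase, which joins acetyl-CoA and acetoacetyl-CoA at the start of the pathway. Its level was 14.31, 14.69, 14.86 and 14.85 (log2 intensity) in the knockout samples of pairs 1, 2, 4 and 5, against 14.43, 13.92, 13.19 and 14.03 in the wild-type samples. The groups overlapped only through pair 1, where the wild-type sample was the highest of its group and the knockout sample the lowest of its own. The mean log2 ratio was 0.78 ± 0.73 (SD, n = 4), 1.72-fold, with a limma adjusted p of 0.593. The dimmer Hmgcs1 probe had a wider range, with log2 ratios of -1.41, 1.49, 1.88 and 0.85 for pairs 1, 2, 4 and 5, and the probes differed by 1.28 in pair 1.

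Fdps, the farnesyl diphosphate synthase at the branch point to sterols and other isoprenoids, had the same order of pairs. Its level was 12.23, 13.20, 13.59 and 13.32 (log2 intensity) in the knockout samples of pairs 1, 2, 4 and 5, against 12.91, 12.55, 11.89 and 12.49 in the wild-type samples. The genotypes overlapped through pair 1. The log2 ratios were -0.68, 0.65, 1.70 and 0.83, with a mean of 0.62 ± 0.98 (SD, n = 4) and a limma adjusted p of 0.632. Pair 4 was the highest for Hmgcs1, Pmvk and Fdps alike, and these 3 genes share the wild-type and knockout samples behind each ratio.

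The enzymes after squalene differed in how far pair 1 departed from the rest. Sqle, the squalene epoxidase, had levels of 12.89, 13.46, 13.90 and 13.68 (log2 intensity) in the knockout samples of pairs 1, 2, 4 and 5, against 13.58, 12.99, 12.23 and 13.01 in the wild-type samples. In pair 1 the wild-type sample was the higher one, and in the others the knockout sample. The log2 ratios were -0.68, 0.47, 1.67 and 0.67, with a mean of 0.53 ± 0.97 (SD, n = 4) and a limma adjusted p of 0.660. Its values lay close to those of Fdps on each array. Lss, the lanosterol synthase that closes the sterol rings, had levels of 10.19, 10.61, 10.13 and 10.13 (log2 intensity) in the knockout samples of pairs 1, 2, 4 and 5, against 10.09, 9.75, 9.24 and 9.69 in the wild-type samples. The genotypes did not overlap, although the lowest knockout and highest wild-type sample were nearly level. Its mean log2 ratio was 0.57 ± 0.38 (SD, n = 4), 1.49-fold, with a limma adjusted p of 0.593. On the dimmer Lss probe the ratio was -0.57 in pair 1 and the mean 0.41 ± 0.70, and there the levels of the genotypes overlapped.

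The regulators had the smallest means. Insig1 had levels of 9.86, 10.45, 10.23 and 10.40 (log2 intensity) in the knockout samples of pairs 1, 2, 4 and 5, against 10.75, 9.54, 9.57 and 9.69 in the wild-type samples. The wild-type sample of pair 1 was above every other sample of either genotype, and the remaining wild-type samples were below every knockout sample. Its mean log2 ratio was 0.35 ± 0.84 (SD, n = 4), with a limma adjusted p of 0.811, and its second probe was at 0.02 ± 0.66. Srebf2 had levels of 11.06, 11.58, 11.43 and 11.49 (log2 intensity) in the knockout samples of pairs 1, 2, 4 and 5, against 11.77, 10.94, 11.34 and 11.19 in the wild-type samples. Outside pair 1 its knockout and wild-type samples lay closest in pair 4. Its log2 ratios were -0.71, 0.64, 0.09 and 0.29, with a mean of 0.08 ± 0.57 (SD, n = 4) that was -0.02 with median centring, and a limma adjusted p of 0.958. Its dimmer probe ranged from -1.41 in pair 1 to 1.33 in pair 2.

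**Figure D2:**
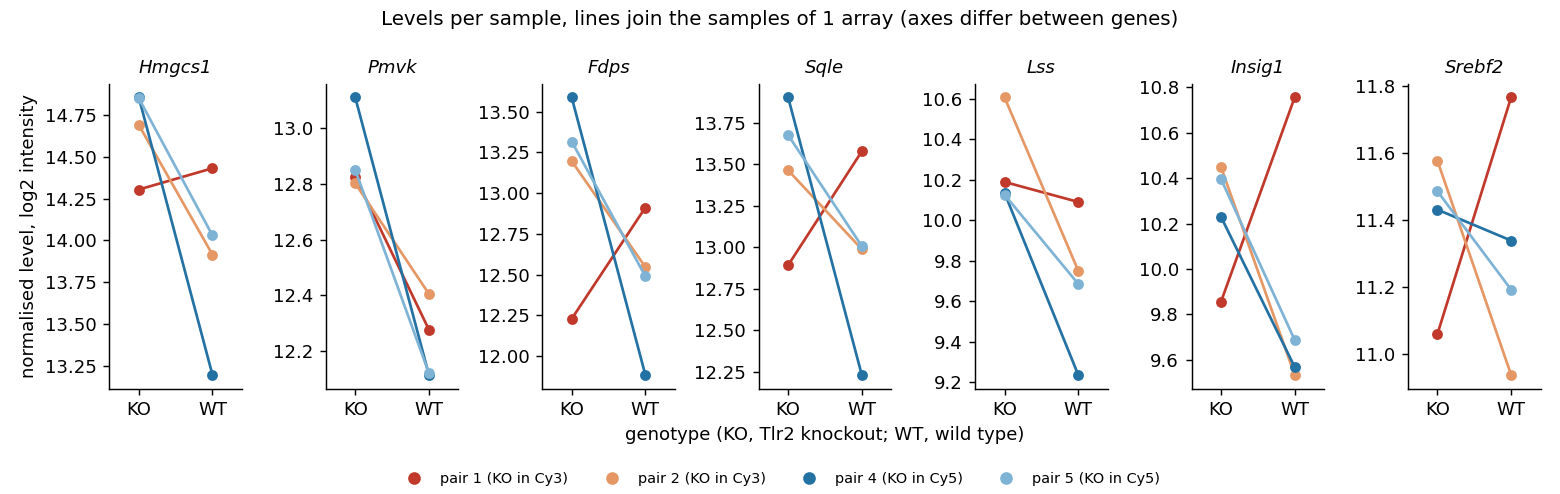
Normalised level (log2 intensity, own vertical axis for each gene) of the 7 measured genes in the 4 knockout samples (left in each panel) and the 4 wild-type samples (right), with a line joining the samples of 1 array. The line of pair 1 runs upward to the wild-type sample for Hmgcs1, Fdps, Sqle, Insig1 and Srebf2, and downward for Pmvk and Lss, as do all lines of the other pairs.

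The order of the samples by level was counted after the ratios of pair 1 were known. The levels are built from the same ratios, so these counts restate the pattern of the ratios and are no separate observation. In pair 1, the wild-type sample was the highest of the 4 wild-type samples for 6 of 7 members, as it was for 28.5% of all genes, and the knockout sample was the lowest of the 4 knockout samples for 5 of 7, as for 36.2% of all genes. Both held for 5 of 7 members and for 17.7% of all genes. Levels from different arrays can also carry differences between arrays and dyes. In pairs 2, 4 and 5, the 3 knockout samples lay above the 3 wild-type samples for 7 of 7 members, against 11.9% of all genes.

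Markers of cell types and of gut position differed between pairs as well. Hox genes of posterior position, 4 of 4 measured, had median log2 ratios of -2.20, 0.52, 1.70 and 0.50 for pairs 1, 2, 4 and 5, and 3 of 4 anterior ones had 2.08, -0.49, -1.69 and 0.16. The summed level of the posterior genes ranged from 743 to 6184 (linear intensity) in the knockout samples and from 1235 to 5104 in the wild-type samples. Adipocyte markers, 7 of 8 measured, had medians of -0.14, 0.12, 0.68 and 1.97, with summed levels from 5828 to 32872 in the knockout samples and from 3748 to 10643 in the wild-type samples. Markers of proliferating crypt cells, 6 of 6 measured, had medians of 0.24, -0.18, -0.39 and 0.08, with summed levels from 7926 to 12738 in the knockout samples and from 8155 to 11993 in the wild-type samples. Smooth muscle markers, 6 of 6 measured, had medians of -1.03, -0.12, -0.39 and 0.32, with summed levels from 12109 to 26534 in the knockout samples and from 14774 to 36109 in the wild-type samples. Of these markers, Acta2 and Actg2 were negative in pair 1 and positive in the other pairs, as most members were. Tagln had the opposite sign in every pair. Myh11, Des and Cnn1 were negative in pairs 1, 2 and 4 and positive in pair 5. Goblet cell markers, 5 of 6 measured, give no difference here, because 4 of them were saturated on every array. Absorptive colonocyte markers, 8 of 8 measured and 4 saturated on every array, are given no median here for the same reason. Among them Slc26a3, Car4 and Cdh1 were negative in pair 1 and positive in the other pairs, as most members were. Car1, Krt20, Aqp8 and Vil1 were all at 0.47 in pair 2, as were the goblet cell markers Fcgbp and Clca1. No direction is given for Car1, Krt20, Aqp8 and Vil1. Epcam was positive in every pair. Posterior Hox genes were negative in pair 1 and positive in the other pairs by their median, as the members were by theirs. Only 2 of the 4 posterior genes were well above background in all samples. Hoxa13, Hoxd10 and Hoxd13 had these signs, and Hoxd12 was at -0.06 in pair 2 and -0.0032 in pair 4. The part of these differences in the members' ratios was not tested. In such whole mucosa, fewer cells of a type and less RNA per cell cannot be told apart.

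Without pair 1, the means of the 7 members lay between 0.34 and 1.09 (log2, n = 3). Hmgcs1 was at 1.09 ± 0.50 (SD, n = 3), 2.12-fold, Fdps at 1.06 ± 0.56 and Sqle at 0.94 ± 0.64. Insig1 was at 0.76 ± 0.13, Lss at 0.73 ± 0.25, Pmvk at 0.71 ± 0.30 and Srebf2 at 0.34 ± 0.28. With a dye effect in the fit, leaving out pair 1 leaves pair 2 alone in its dye orientation. That array is then fitted exactly and adds nothing to the spread that limma estimates. Limma p-values without a pair would not measure the spread around these means and are not given. Without pair 4, the means were 0.49 for Hmgcs1, 0.26 for Fdps, 0.15 for Sqle and 0.24 for Insig1. By the submitters' rule, over 1.6-fold on at least 2 arrays and none contradicting, Pmvk and Lss passed over 4 arrays, against 0.762% of all genes upward. With median centring, with the mean of all probes or without pair 4, 0 of 7 members passed it, and with processed signals or without pair 2 or 5 1 of 7 did. The share of all genes passing under these settings is not given, so these counts cannot be set against one. Over pairs 2, 4 and 5 the rule was passed by 5 of 7 members, all but Sqle and Srebf2, against 2.64% of all genes upward. None of the members passed it downward, against 0.714% of all genes.

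**Figure D3:**
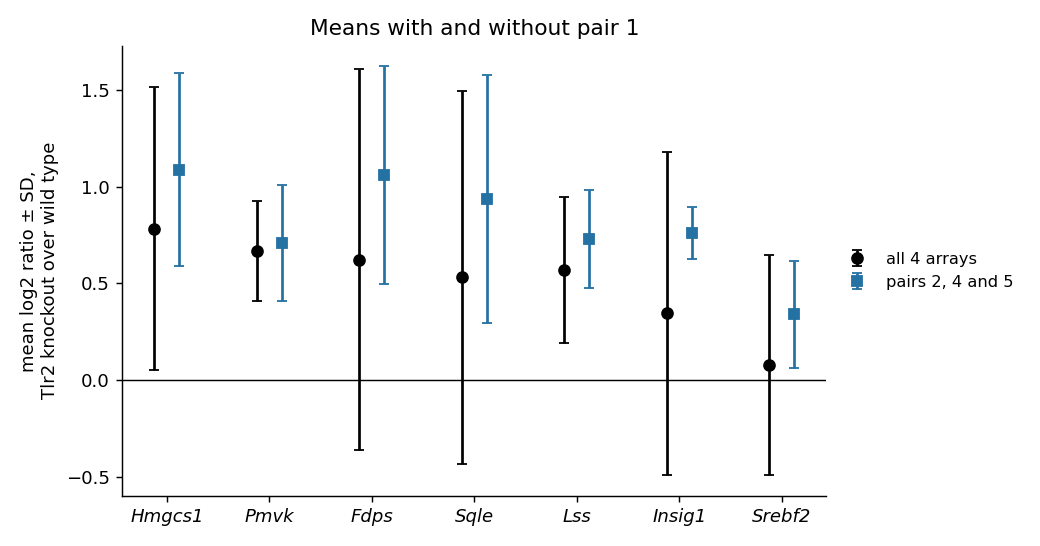
Mean log2 ratio of Tlr2 knockout over wild type for each measured gene, with SD bars, over all 4 arrays (circles, n = 4) and over pairs 2, 4 and 5 (squares, n = 3). The mean of Insig1 is 0.35 with pair 1 and 0.76 without it, and that of Pmvk 0.67 and 0.71.

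The ratios also differed between the dye orientations, each of which held 2 arrays. With the knockout sample in Cy5 (pairs 4 and 5) the mean log2 ratio was 1.24 for Hmgcs1, 1.26 for Fdps and 1.17 for Sqle. With the knockout in Cy3 (pairs 1 and 2) it was 0.32 for Hmgcs1, -0.02 for Fdps and -0.11 for Sqle, where pair 1 lowered each mean. Pmvk was at 0.86 with the knockout in Cy5 and 0.47 with it in Cy3, and Lss at 0.67 and 0.48 likewise. Pair 2, with the knockout in Cy3, was positive for every member as pairs 4 and 5 were.

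A wider list of 50 genes set the members in their pathway, and 48 of them were measured. It was chosen with earlier results of these data known. Over the list, 36 of 48 genes had a positive mean, against 47.6% of all genes tested, and 12 a negative one. The median of the means was 0.16, but 0.07 with median centring and 0.02 on the arrays with the knockout in Cy3. By the submitters' rule 4 of 48 passed as higher in the knockout, against 0.762% of all genes, and 0 as lower, against 0.714%. None passed limma after adjustment over all genes, and 11 of 48 had an unadjusted limma p under 0.05, against 8.12% of all genes. Of the 41 listed genes measured beside the members, 2 passed the rule upward, 18 were positive in pairs 2, 4 and 5, against 23.3% of all genes, and the median of the means was 0.12. The median was 0.58 over 8 mevalonate and isoprenoid genes, 0.30 over 14 genes from squalene to cholesterol, 0.06 over 11 sterol sensing genes and 0.16 over 15 genes of lipoprotein uptake and sterol transport.

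**Figure D4:**
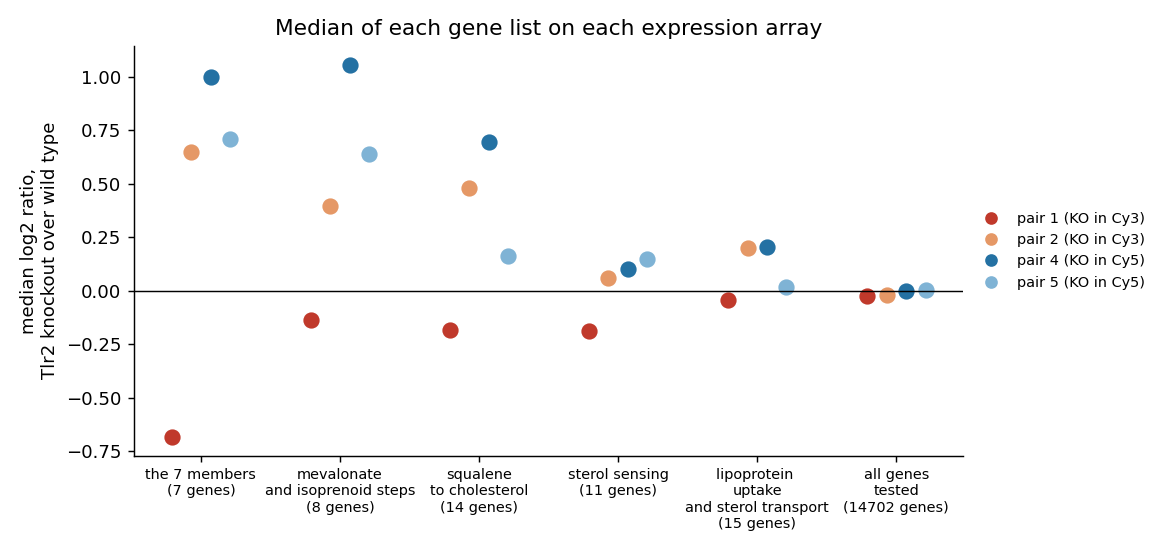
Median log2 ratio of Tlr2 knockout over wild type on each array (1 point per array) for the 7 members, 4 groups of the wider pathway list, which include the members, and all genes tested. The members' median is -0.68 in pair 1 and 0.65, 1.00 and 0.71 in pairs 2, 4 and 5, and the median of all genes is -0.03 in pair 1 and nearer to 0 in the others.

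Some other enzymes of synthesis had values like those of the members, and were named for large positive means or 1 sign on all arrays. Of 8 mevalonate and isoprenoid genes, members included, 6 were positive in pairs 2, 4 and 5, against 23.3% of all genes. Of 14 genes from squalene to cholesterol, 8 were positive in these pairs. Another 3 of those 14 were negative in all of them, against 3600 of 14702 genes tested. Mvk, the mevalonate kinase that acts just before Pmvk, had log2 ratios of -0.34, 0.82, 1.11 and 0.90 for pairs 1, 2, 4 and 5. Mvd, the decarboxylase that acts just after it, was at 0.03, 0.40, 1.14 and 0.55. Msmo1, a sterol methyl oxidase, was at 0.14, 0.67, 1.04 and 0.25. Mvd and Msmo1 were thus positive on all 4 arrays, with means of 0.53 ± 0.46 and 0.52 ± 0.41 (SD, n = 4) and limma adjusted p of 0.593 and 0.608. Cyp51, the lanosterol demethylase, was at 0.54 ± 0.64 and Lbr, which has sterol reductase activity, at 0.41 ± 0.50 (SD, n = 4), both negative in pair 1 on the probe used. Dimmer Cyp51 probes were at -0.58 and 0.09 in pair 1, so the sign of Cyp51 there depended on the probe.

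Late steps of the pathway did not all have positive ratios. Dhcr7, which makes cholesterol from its last precursor, was at -0.37, -0.19, -0.05 and -0.31 for pairs 1, 2, 4 and 5 on the probe used, with a mean of -0.23 ± 0.14 (SD, n = 4). Its second probe was at 0.24 in pair 2. Ebp, a sterol isomerase, was at -0.28 ± 0.52, with 2 arrays positive and 2 negative.

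In the group of lipoprotein uptake and sterol transport, Mylip passed the submitters' rule as higher in the knockout. It encodes a ubiquitin ligase that promotes the breakdown of lipoprotein receptors, and was positive on all 4 arrays at 0.55 ± 0.41 (SD, n = 4, limma adjusted p of 0.593). Its second probe was at 0.15 ± 0.77 and negative in pair 1. Scarb1, a receptor for high density lipoprotein, was negative on all 4 arrays at -0.32, -0.40, -0.65 and -0.21, with a mean of -0.39 ± 0.19 and a limma adjusted p of 0.593. Lipa, the lysosomal acid lipase that frees cholesterol from taken-up lipoprotein, was at -0.28 ± 0.33.

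The probes of Stard4, a cytosolic sterol carrier, were in opposite directions. The brightest probe was at 1.33, -1.29, -1.35 and -0.60 (log2) for pairs 1, 2, 4 and 5. The other probes were at -0.52, 0.52, 0.53 and 0.15, and at -0.58, 0.48, 0.68 and 0.29. Only the dimmer probes thus had the signs of most members, and no direction is given for the gene.

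Outside the list, the 5 genes whose log2 ratios were nearest to the members' median profile over the 4 arrays were Mapk6, Fbxo34, Clasp2, Cbx3 and Dctn4. Their root mean square difference from that profile was between 0.08 and 0.10 (log2, n = 4 arrays).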

How the data were processed

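RNA of colonic mucosa was hybridised to Agilent 4x44k arrays in 4 knockout and wild-type pairs. Group, pair number and dye came from the labels. The scanner files hold median spot and background intensity and a processed intensity per channel, made by the authors with Agilent Feature Extraction, of which the file headers name version 10.5.1.1 while, per the submitters' processing notes, it was 8.5.1.1. The log10 ratio deposited in these files (Cy5 over Cy3) was only checked against the processed signals. Tables of hits deposited by the authors hold linear ratios, knockout over wild type, and no source used here states how they were normalised.

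With limma 3.58.1 in R 4.3.3, normexp (offset 50) corrected the background and loess normalised each array. Control and outlier spots were left out. Repeated spots were averaged per probe. A probe was kept if 1 genotype's channel was well above background on 2 or more arrays, and each gene was read from its brightest probe. Of 41174 probes, 25316 had a symbol, through accessions in a gene table of GRCm38.p6 or the authors' tables. Levels per sample came from the same values after Aquantile scaling between arrays. The log2 ratios were fitted with lmFit and eBayes over 14702 genes, with a dye effect as intercept, and adjusted by Benjamini-Hochberg at 0.05. The fit was also run on simulated ratios drawn independently for each array. That setting lacks the negative correlation of pair 1 with the other pairs.

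The members, lists and naming rule were chosen with earlier results of these data known. Named were all members, listed genes past the submitters' rule or of 1 sign on all arrays with a mean of at least 0.3, the 4 highest and 4 lowest of the others, and the 5 nearest profiles. Stard4, Dhcr7 and Cyp51 probes beyond the brightest were added after their values were seen. A few listed genes, some of which the rule would name, stay in the counts and are not reported here. Comparisons of levels and of the submitters' rule without pair 1 were chosen after seeing the data. The methylation arrays were not used here, because their probes carry positions and no gene names.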

Additional observations from a re-analysis of the deposited data

Results flagged for a closer look

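Among 32 sets of 4 values tested for 1 value far from the others (the log2 ratios of the members and named genes, and the levels of the members in each genotype), 4 stood out by Dixon's criterion, where chance flags about 1 in 20. The Insig1 log2 ratio of -0.90 in pair 1 lay at a gap of 0.860 of the whole range from the nearest other pair, and the Insig1 level of 10.75 in the wild-type sample of pair 1 at a gap of 0.874. The Lss level of 10.61 in the knockout sample of pair 2 lay at a gap of 0.868, and the Pmvk level of 13.11 in the knockout sample of pair 4 at a gap of 0.846. All gaps are shares of the range of 4 samples. The 32 sets are not independent, because the levels are built from the same ratios, and both Insig1 flags come from pair 1. The 4 flags are therefore no count of separate departures to set against 1 in 20.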

How the results depend on the processing

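The number of genes called in limma over all genes, 0 higher and 0 lower, was 1 and 2 without the dye term, 0 and 4 with Agilent processed signals, and 0 and 1 without background correction, with median centring in place of loess, or with the strict filter. It was 0 and 0 without a filter and with the mean of all probes. Fits with a pair left out are not counted here, because 1 dye orientation then holds 1 array. The submitters' rule gave 112 higher and 105 lower, and at least 1.6-fold on each array 13 and 6. None of the members was called under any of these fits. The members' median log2 ratio of 0.57 lay between 0.26 without pair 4 and 0.76 without pair 1, and was 0.0076 on the arrays with the knockout in Cy3 and 0.86 on those with it in Cy5. That of the pathway list was 0.16, between 0.15 and 0.24 when a pair was left out, 0.0676 with median centring, 0.0220 with the knockout in Cy3 alone and 0.22 with it in Cy5 alone. The count of members positive on every array, 2 of 7, was 1 with processed signals or the mean of all probes, 0 with median centring, between 2 and 7 when a pair was left out (7 without pair 1), and 7 with the knockout in Cy5 alone. Of all genes tested, 7.18% were positive on all 4 arrays and 23.3% in pairs 2, 4 and 5. No such share is given for the other settings, and the Cy5 setting holds only 2 arrays. The mean was positive under all 14 alternatives for Hmgcs1, Pmvk, Lss and Insig1. It reversed for Srebf2 with median centring (-0.0245), without pair 2 (-0.11, against 0.34 without pair 1) and with the knockout in Cy3 alone (-0.0335), and in that last setting for Fdps (-0.0166), Sqle (-0.11) and Stard4 (0.0190), and for Ebp with the knockout in Cy5 alone (0.16). The cause was not tested. Members passing the submitters' rule numbered 2 over all arrays, 5 without pair 1, 1 without pair 2 or 5 and 0 without pair 4, and 1 with processed signals and 0 with median centring or the mean of all probes. Of all genes, 0.762% passed it upward over all arrays and 2.64% without pair 1, and no share is given for the other settings. The log2 ratio within an array is itself the paired value, so the fit is paired by array. A fit with no replicate block, on the 8 channel levels with genotype and dye, was added after seeing the data. It called 1 gene higher and 2 lower, none of them a member, and the members' adjusted p was between 0.167 for Pmvk and 0.936 for Srebf2 in limma. All probes of the members were above background and unsaturated.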
